A study of Mus musculus with 6 samples.

Results

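Cytosolic ribosomal protein genes were examined in RNA sequencing libraries of sorted mouse skin cells labelled as knockout or control for Zfp750. Zfp750 is the mouse counterpart of the epidermal differentiation factor ZNF750. The members were the protein-coding genes whose symbol is Rpl or Rps followed by a number, or is Rpsa, Rplp0, Rplp1 or Rplp2, without the S6 kinase genes. This rule took 91 of 23934 genes. It also takes Rps19bp1, which encodes a binding partner of Rps19, and Rpl7l1, an assembly factor related to Rpl7. It leaves out ribosomal proteins encoded under other symbols, such as Fau and Rack1.

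The 3 knockout samples are labelled ZNF750 fl/fl and Rosa26 -/-, with Lrig1-CreER +/- in 1 of them and Lrig1-CreERT2 +/- in the other 2, and their titles add the red fluorescent reporter TdTomato. The 3 control samples are labelled ZNF750 wt/fl, Rosa26 -/-, Lrig1-CreERT2 +/-, then ZNF750 wt/wt, Rosa26 +/-, Lrig1-CreERT2 +/-, and then ZNF750 wt/fl, Rosa26 -/-, Lrig1-CreER +/-, with no reporter in their titles, while the protocol says of both groups that tdTomato was expressed. The knockout and the control pups all received 4-hydroxytamoxifen, on days 4 to 7 or 5 to 8 of age, and the samples are labelled day 50. The Cre is driven from Lrig1, a gene of the upper hair follicle, which limits recombination to Lrig1-expressing cells and their descendants. The table's columns name the group, a UB number and an S number. The UB numbers are 1, 2 and 3 for the columns S5, S6 and S7 of the knockout group and 2, 3 and 4 for the columns S2, S3 and S4 of the control group. The labels number the samples of each group 1 to 3, so the UB numbers were not taken for sample numbers, no genotype was tied to a single column, and the libraries are named by their S numbers. Nothing in the labels says whether the libraries come from different mice, and p-values here rest on a spread between libraries that may be technical.

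Each cytosolic ribosome has a small subunit, which reads the messenger RNA, and a large subunit, which joins amino acids, with a flexible stalk of P proteins that recruits translation factors. The proteins are needed in matched amounts, and proteins left unassembled are usually degraded. Many of their messenger RNAs begin with a C followed by a run of C and U, the terminal oligopyrimidine (TOP) tract through which the mTORC1 kinase pathway controls their translation. Mammalian genomes hold many intronless copies of these genes, made by reverse transcription of their messenger RNAs.

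Starts of 8 members are shown because they carry this tract. The sequences are from RefSeq on GRCm38.p6, with 10 bases before the annotated start and 20 from it, and the unbroken pyrimidine run from the start is in capitals. Rpl28 (chr7:4792955-4792984, plus strand), Rpl14 (chr9:120571507-120571536, plus), Rps10 (chr17:27635225-27635254, minus), Rps6 (chr4:86857348-86857377, minus) and Rplp2 (chr7:141447641-141447670, plus) had higher means in knockout libraries. So did Rpl35 (chr2:39005112-39005141, minus) and Rps15a (chr7:118116128-118116157, minus), while Rpl38 (chr11:114668570-114668599, plus) had the lowest log2 fold change of the tested members.
Rpl28: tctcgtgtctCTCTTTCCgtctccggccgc
Rpl14: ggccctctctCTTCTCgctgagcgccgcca
Rps10: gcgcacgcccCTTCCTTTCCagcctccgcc
Rps6: gaagtcgggcCTCTTTTTCgtgacgcctcc
Rplp2: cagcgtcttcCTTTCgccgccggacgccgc
Rpl35: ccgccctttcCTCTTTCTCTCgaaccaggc
Rps15a: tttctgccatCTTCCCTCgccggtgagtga
Rpl38: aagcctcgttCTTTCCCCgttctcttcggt

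Of the 91 members, 66 had a RefSeq start sequence. A C at the first base followed by at least 4 pyrimidines was present in 14 of 66 (21.2%), against 813 of 27025 genes with an entry (3.01%). The motif CTTTCC lay within 20 bases of the start on either side, on the gene's own strand, in 12 of 66 members (18.2%), against 2.30% of genes. Its reverse complement GGAAAG was in 0 of 66 members, against 2.03% of genes. CTTTCC can overlap the pyrimidine run, as it does in Rpl28. Tested members with the tract at their annotated start had a median log2 fold change of 0.32, and those without had 0.33. A match describes these letters only, and a tract that begins some bases from the annotated start is missed. Rpl13a, for example, has CTTTCC near its start but no match at the first base. Members without a match may thus still carry the tract.

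Library depth was 16940619 to 20222372 estimated reads in the knockout libraries and 15310161 to 20705441 in the control libraries. Zfp750 itself had 4.90, 1.82 and 7.16 normalized units in knockout S5, S6 and S7, against 41.9, 3.75 and 314 in control S2, S3 and S4. Control S3 lies inside the knockout range, so for this library the gene does not check the label. Its row was too low to be tested. All 6 libraries held fibroblast transcripts. The 9 fibroblast genes summed to 936650 to 1239010 in knockout and 2994130 to 8930810 in control libraries, without overlap. Most of each sum came from Col1a1, Col1a2 and Col3a1, and the separation rests on them. Dcn, Lum, Dpt and Fbln1 of this list overlapped between the groups. Of the 9 genes, 6 had a log2 fold change below 0, and the median of the list was -0.96. The receptor genes Pdgfra and Pdgfrb of the same list rose, Pdgfra to 23877 to 29489 in knockout, against 10886 to 11482 in control libraries. The basal keratinocyte gene Krt14 was at 1014 to 8235 in knockout and 17.5 to 4560 in control libraries, with overlap. The collagens Col1a1, Col1a2 and Col3a1 together took 6.18%, 4.96% and 5.50% of the knockout totals and 22.2%, 33.1% and 17.5% of the control totals.

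No ribosomal protein gene passed the test singly, and most had slightly higher means in the knockout libraries. With limma and Benjamini-Hochberg adjustment over 15935 tested genes, 0 of 87 tested members had an adjusted p under 0.05, while 6.71% of all tested genes did, 4.12% higher and 2.59% lower in knockout libraries. At an unadjusted p under 0.05, 15 of 87 members (17.2%) were higher and 0 lower, against 12.4% and 10.8% of all genes. In either direction that count was 4 without knockout S6 or S7, 5 without control S4, 6 without control S3, 10 without control S2 and 36 without knockout S5. It was 8 with a common upper quartile and 45 with a common library total. Of the 87, 79 (90.8%) had a log2 fold change above 0, against 51.2% of all genes. The median member stood 0.33 higher on the log2 scale, within a range of -0.42 to 0.72, against a median of 0.01 over all tested genes. Weighting the libraries by their estimated quality in limma called 1 member, Rpl10a, with 0.58 and a limma adjusted p of 0.0383, where 12.5% of all genes were called, and lowered the median of members to 0.17. In bulk samples, more transcripts per cell and more cells of a type cannot be told apart.

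**Figure D1:**
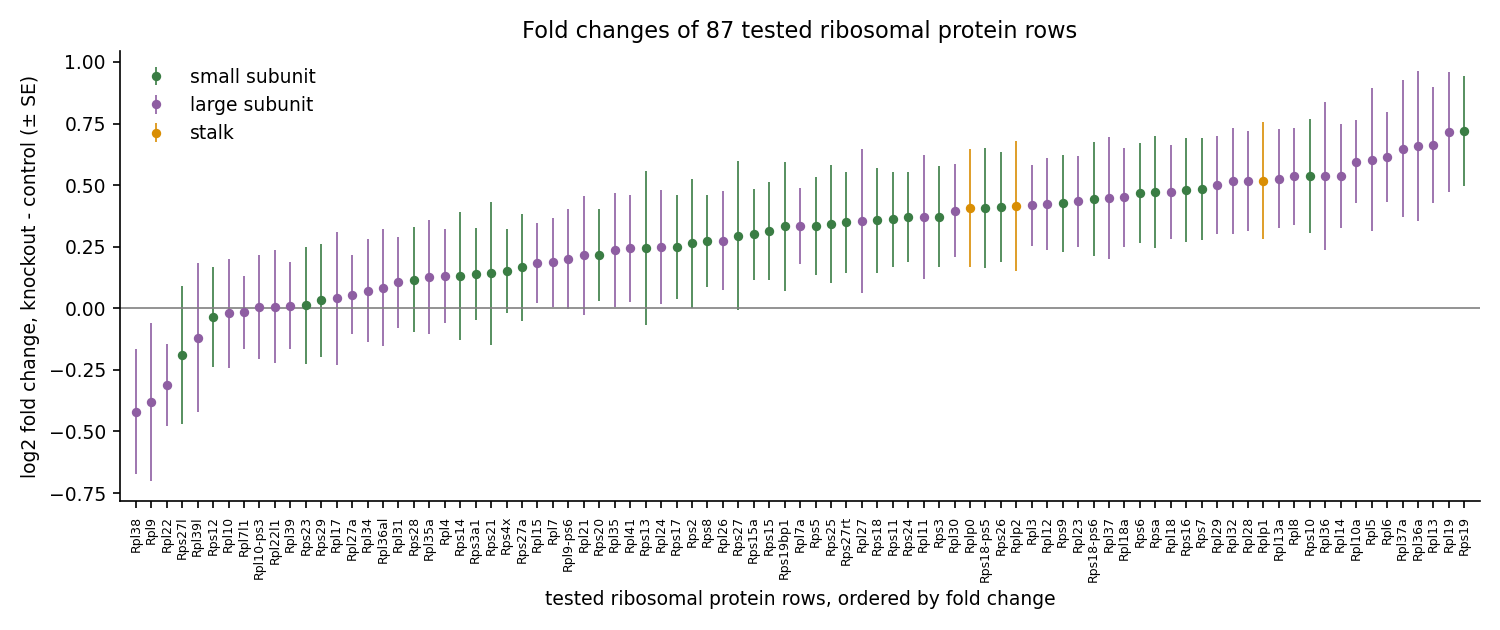
Log2 fold change (knockout minus control, vertical axis) of the 87 tested ribosomal protein genes in order of size, with bars of 1 SE and colours for the small subunit, the large subunit and the stalk. The points run from -0.42 for Rpl38 to 0.72 for Rps19, with 79 of 87 above 0.

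Members whose knockout values all exceeded the control values numbered 25 of 87 (28.7%), against 15.7% of all genes, and 0 lay wholly below, against 13.1%. The shift was not shared by all knockout libraries. The median member differed from the mean of controls by 0.066 in knockout S5, 0.40 in S6 and 0.51 in S7 on the log2(value + 1) scale, and by 0.15, -0.019 and -0.088 in control S2, S3 and S4. Of the 91 members, 57 had their highest value in knockout S7 and 19 in S6, but 4 in S5. Knockout S5 exceeded every control in 31 members and lay below every control in 14.

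**Figure D2:**
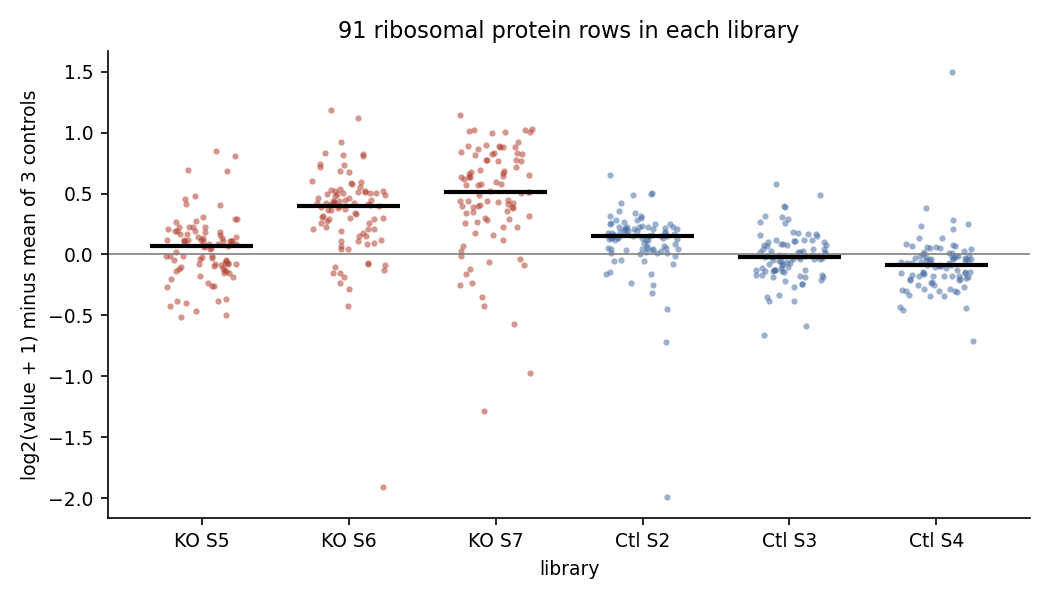
Log2 difference from the mean of the 3 controls, on log2(value + 1), for each of the 91 members (points) in each library, with a black line at the median and knockout libraries to the left. The median is 0.066 in knockout S5, 0.40 in S6 and 0.51 in S7, against 0.15, -0.019 and -0.088 in control S2, S3 and S4.

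Summed over all 91 members, the genes reached 120706, 148142 and 180194 normalized units in knockout S5, S6 and S7, against 129222, 118797 and 109139 in control S2, S3 and S4. The means were 149681 ± 29774 in knockout and 119053 ± 10044 in control libraries (SD, n = 3 each), a ratio of 1.26 (exact permutation p = 0.2). The groups overlap, since knockout S5 lies below control S2.

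As a share of the library total, the members took 0.721%, 0.959% and 1.12% in knockout S5, S6 and S7, against 0.664%, 0.459% and 0.675% in control S2, S3 and S4. The groups do not overlap, and the ratio of means was 1.56 (0.934% ± 0.201 in knockout, 0.600% ± 0.122 in control, SD, n = 3 each). The exact 2-sided permutation p was 0.1, the smallest that 3 against 3 libraries allow, and adjusted over the 21 summed measures it was 0.233. Without the 3 collagens in the denominator the shares were 0.769%, 1.01% and 1.19% in knockout and 0.853%, 0.687% and 0.819% in control libraries. These groups overlap, with a ratio of 1.26 (exact permutation p = 0.3). The share separated the groups only with the collagens counted.

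**Figure D3:**
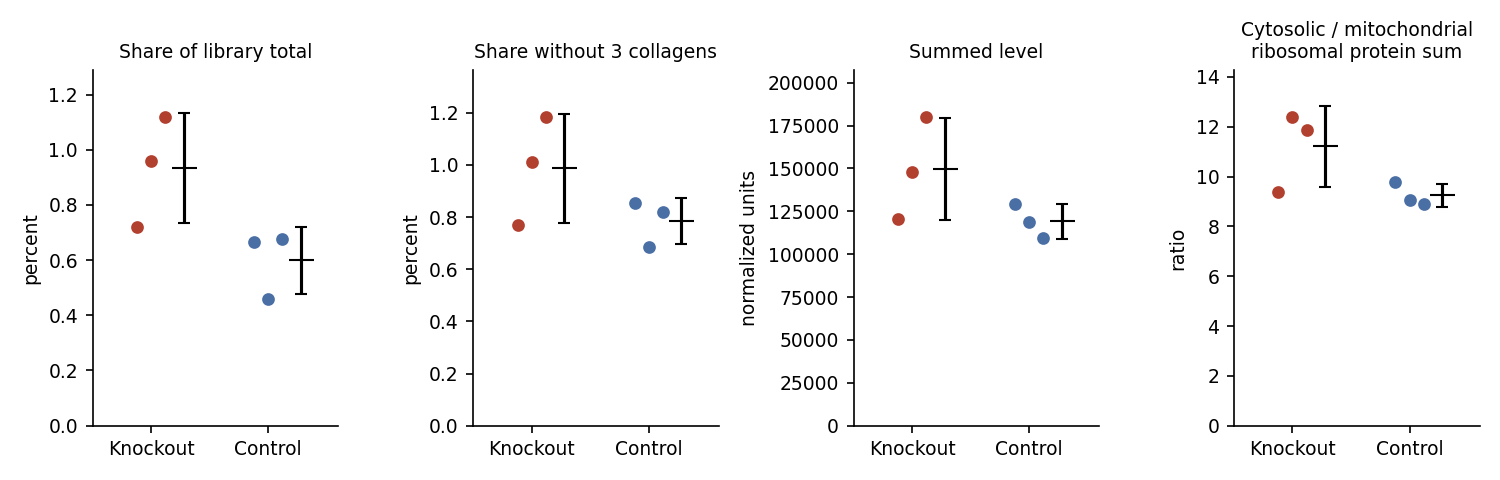
Ribosomal protein share of the library total, the share without 3 collagens, the summed level and the ratio to the mitochondrial ribosomal protein sum, as points per library beside the mean and SD (n = 3 each), knockout to the left. The share of the total is 0.721% to 1.12% in knockout and 0.459% to 0.675% in control libraries, and in the other 3 panels the groups overlap.

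Mitochondrial ribosomal proteins, whose messenger RNAs are also made from nuclear genes, gave a comparison within each library. The 78 genes summed to 13337 ± 1678 in knockout and 12872 ± 513 in control libraries (SD, n = 3 each), a ratio of 1.04 (exact permutation p = 0.9). As a share of the library total they too separated the groups, at 0.0769%, 0.0773% and 0.0945% in knockout and 0.0679%, 0.0508% and 0.0760% in control libraries, a ratio of 1.28 (exact permutation p = 0.1). Of the 78, 47 (60.3%) had a log2 fold change above 0, against 51.2% of all tested genes. The median was 0.07, and 0 passed the test, against 6.71% of all tested genes. The cytosolic members were 9.38, 12.4 and 11.9 times the mitochondrial sum in knockout S5, S6 and S7, against 9.79, 9.05 and 8.89 in control S2, S3 and S4. This ratio does not depend on scaling between libraries. Knockout S6 and S7 exceed all controls, while S5 lies among them (exact permutation p = 0.2). Mrpl17, a large subunit protein with the highest mean of the mitochondrial set, had a log2 fold change of 0.0029.

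Markers of other cells moved in part with the members. Of all tested genes, 4.12% were called higher and 2.59% lower in knockout libraries. In lists as short as these, 1 call is a result about that gene only. The summed level of 6 leukocyte genes, all detected in every library, was 700, 2301 and 5942 in knockout S5, S6 and S7, in the same order as the ribosomal protein sum, and 150, 109 and 1448 in control S2, S3 and S4. Control S4 nevertheless had the lowest ribosomal protein sum. None of the 6 genes passed the test. The 9 mast cell genes summed to 1633 to 5504 in knockout and 76.2 to 701 in control libraries, with 4 of them called higher and Fcer1a, Tpsab1 and Ms4a2 at 0 in at least 1 library. Macrophage sums were 2031, 1562 and 15525 in knockout S5, S6 and S7, against 1253 to 2190 in control libraries, and 0 of the 9 genes were called. Only knockout S7 stood above all controls. Of the 8 tested genes, 7 had a log2 fold change above 0, while Csf1r had -0.78. Neutrophil sums were 1032 to 2518 in knockout and 18.7 to 38.7 in control libraries, with 2 of 6 genes called higher. Most of the knockout sums came from 1 of these, Mmp9, at 952, 1007 and 1785 in S5, S6 and S7. S100a8, S100a9 and Cxcr2 were too low to be tested. Mmp8, Cxcr2, Csf3r, S100a8 and S100a9 were at 0 in some library. T cell sums overlapped, at 9609 to 15760 in knockout and 8721 to 17806 in control libraries, but Thy1, which fibroblasts also express, made up most of them. The other 7 T cell genes summed to 152, 886 and 1051 in knockout S5, S6 and S7, against 39.4, 42.5 and 405 in control S2, S3 and S4, with 0 of them called and Cd3d, Cd3g and Trac at 0 in some library. Endothelial sums were 2950 to 9196 in knockout and 1419 to 2255 in control libraries, with 1 of 7 genes called higher, Flt1. The separation of the sums rests on Flt1, at 1454, 2497 and 3046 in knockout and 96.6, 73.7 and 38.7 in control libraries. Pecam1 and Cdh5 overlapped between the groups, and Kdr and Tek had log2 fold changes of -0.41 and -0.72. Fat cell sums were 755, 2533 and 10444 in knockout S5, S6 and S7, against 288 to 565 in control libraries. Here too 1 of 7 genes was called higher, Cfd, at 126, 718 and 6209 in knockout S5, S6 and S7. Adipoq and Lep were at 0 in some library. Keratinocyte sums overlapped, at 3442 to 26932 in knockout and 621 to 33032 in control libraries, and 1 of 10 genes was called, Krt10, a keratin of differentiating layers. It fell to 80.4, 21.0 and 31.8 in knockout, against 136, 136 and 200.2 in control libraries (limma adjusted p = 0.0496). Sums of proliferation genes were 2018 to 2879 in knockout and 1780 to 4669 in control libraries, with 0 of 12 called. The part of these cells in the ribosomal protein values was not tested.

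Small subunit members mostly had higher knockout means, and none passed the test. Of 37 members, 36 were tested, 34 had a log2 fold change above 0 and the median was 0.32. Rps19, which is needed to mature the small subunit and is mutated in human Diamond-Blackfan anaemia, had 1467, 2112 and 2401 normalized units in knockout S5, S6 and S7. In control S2, S3 and S4 it had 1411, 1023 and 1147. All knockout libraries exceed all controls, S5 by little, and the log2 fold change was 0.72 ± 0.22 (SE), the largest of the members, with a limma adjusted p of 0.106.

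Rpsa, which binds the small subunit and is also described as a laminin receptor, had 7471, 8968 and 11968 in knockout libraries and 7332, 7019 and 5851 in control libraries. Its groups do not overlap, at 0.47 ± 0.23 (SE) and a limma adjusted p of 0.265. Rps20, in which mutations darken mouse skin, had 1255, 1521 and 1880 in knockout and 1442, 1344 and 1176 in control libraries. Its groups overlap, and the log2 fold change was 0.22. Rps2 and the X-linked Rps4x were among the 6 members with the highest means, at 0.26 and 0.15. Summed with its copies, Rps2 stood at 0.45 without overlap of the groups. Rps12 had a log2 fold change of -0.04, or 0.05 summed with the copies that bear its name.

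Large subunit members gave the lowest adjusted p-values. Of 51 members, 48 were tested, 42 had a log2 fold change above 0 and the median was 0.30. Rpl10a, the uL1 protein of the side stalk through which used transfer RNA leaves, had 898, 1032 and 1004 in knockout S5, S6 and S7, against 646, 543 and 758 in control S2, S3 and S4. The groups do not overlap, at 0.60 ± 0.17 (SE) and a limma adjusted p of 0.0853, the lowest of the members. Its row holds 32.7% of the value summed with the copies that bear its name. That sum stood at 0.50 ± 0.18 (SE, limma adjusted p = 0.151), also without overlap. Rpl6 had 1180, 1604 and 1784 in knockout and 940, 964 and 1029 in control libraries, again without overlap, at 0.61 ± 0.18 (SE, limma adjusted p = 0.0962).

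Rpl19 had 205, 316 and 339 in knockout and 190, 141 and 173 in control libraries, at 0.72 ± 0.24 (SE). Summed with its near-identical copies, of which its row holds the smaller part, Rpl19 stood at 0.35 with overlapping groups. Rpl13 had 810, 1028 and 1490 in knockout and 765, 615 and 654 in control libraries, at 0.66 ± 0.24 (SE). Neither row showed overlap, with limma adjusted p-values of 0.133 and 0.146. Rpl36a, an X-linked member, had 35.7, 46.6 and 30.2 in knockout and 22.5, 24.1 and 14.6 in control libraries, also without overlap. Rpl37a had 1079, 1750 and 2032 in knockout and 801, 1302 and 946 in control libraries, where knockout S5 lies below control S3. Among the most abundant rows, Rpl4 had 6046, 6817 and 8659 in knockout and 6541, 6279 and 6622 in control libraries, a log2 fold change of 0.13.

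Rpl5 and Rpl11 join 5S ribosomal RNA and, when ribosome assembly is disturbed, bind the p53 regulator Mdm2. Rpl5 had 308, 691 and 543 in knockout S5, S6 and S7, against 355, 295 and 308 in control S2, S3 and S4. Rpl11 had 64.6, 100.5 and 78.3 in knockout and 66.4, 54.4 and 58.9 in control libraries. Knockout S5 lies among the controls for both genes, and S6 has the highest value. Their log2 fold changes were 0.60 ± 0.29 and 0.37 ± 0.25 (SE), with limma adjusted p-values of 0.265 and 0.422.

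Rpl38, whose loss shortens the tail of mice through altered translation of Hox messenger RNAs, had 86.9, 83.2 and 74.9 in knockout S5, S6 and S7, against 122, 140 and 82.2 in control S2, S3 and S4. Control S4 lies inside the knockout range, and the log2 fold change was -0.42 ± 0.25 (SE, limma adjusted p = 0.368). Rpl9 had 184, 287 and 125 in knockout and 272, 189 and 295 in control libraries, at -0.38. Its row holds 6.90% of the summed value of its near-identical copies, and that sum stood at 0.15, while the sum with copies of Rpl38 stood at -0.23. Rpl22 had 767, 888 and 971 in knockout and 1108, 1219 and 941 in control libraries, at -0.31 (limma adjusted p = 0.307). These are the lowest of the 8 tested members below 0. Rpl24, in which mouse mutants have a belly spot and a kinked tail, had 58.4, 62.0 and 62.3 in knockout and 44.9, 52.5 and 52.5 in control libraries, without overlap, at 0.25.

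**Figure D4:**
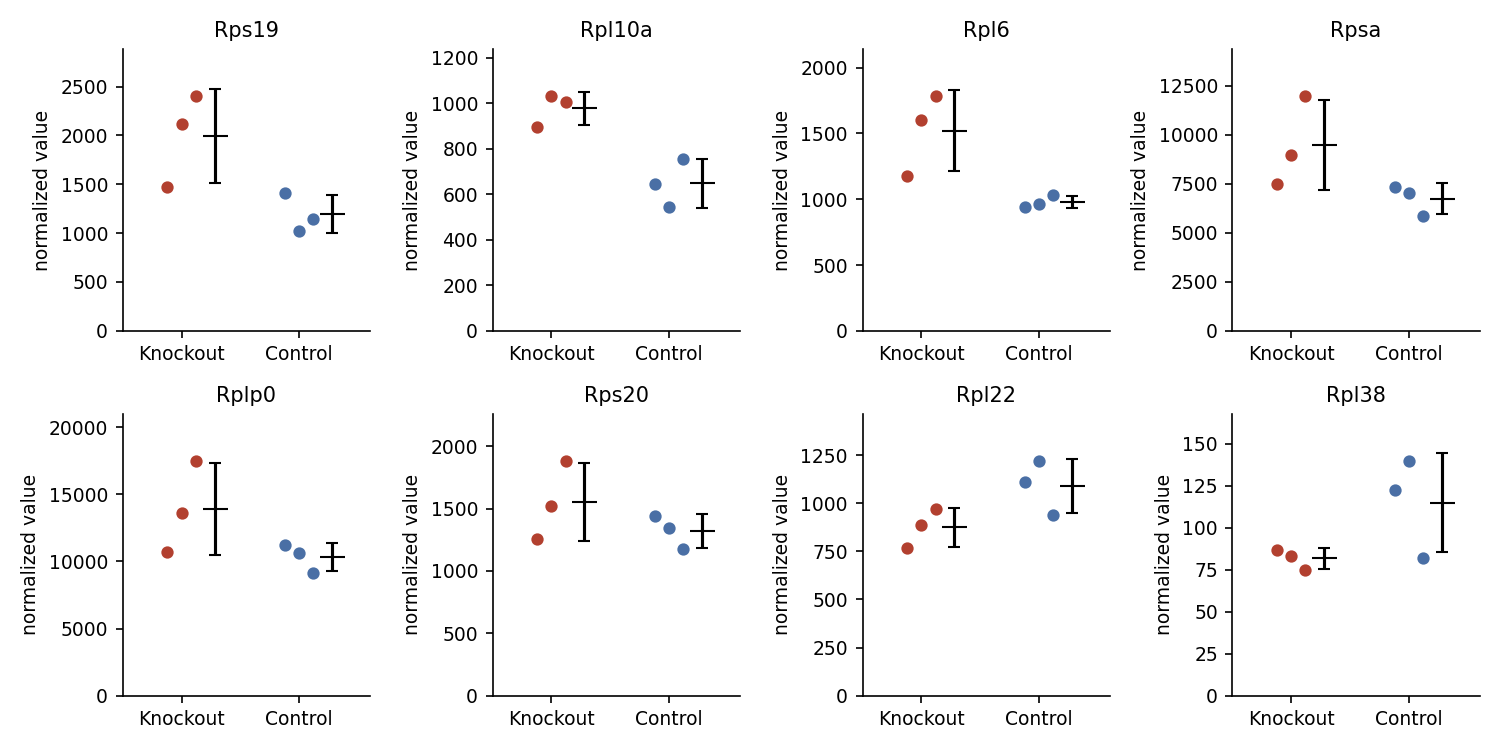
Normalized values of 8 ribosomal protein genes as points per library (S5, S6 and S7, then S2, S3 and S4, from left to right) beside the mean and SD (n = 3 each), knockout to the left. Rps19, Rpl10a, Rpl6 and Rpsa have no overlap between the groups, while control S4 lies among the knockout values of Rpl38.

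The stalk proteins were all higher on average, without passing the test. Rplp0, the stalk base and a frequent reference gene in quantitative PCR, had 10682, 13572 and 17478 in knockout S5, S6 and S7, against 11193, 10613 and 9159 in control S2, S3 and S4. Knockout S5 lies within the control range, and the log2 fold change was 0.41 ± 0.24 (SE, limma adjusted p = 0.358). Rplp1 had 1896, 2396 and 3514 in knockout and 1841, 1889 and 1557 in control libraries, where S5 exceeds the highest control by little. Rplp2 had 467, 627 and 991 in knockout and 513, 497 and 474 in control libraries, with S5 below all controls. As a share of the member sum, the stalk took 10.8%, 11.2% and 12.2% in knockout and 10.5%, 10.9% and 10.3% in control libraries (exact permutation p = 0.2). The ratio of the small to the large subunit sum was 0.899, 0.915 and 0.998 in knockout and 0.907, 0.921 and 0.903 in control libraries (exact permutation p = 0.7).

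Paralogues and near paralogues had a median near that of all tested genes. Some of them can take the place of their parent protein in some tissues. The list is mixed, since it also holds the assembly factor Rpl7l1 and the retrogene Rps27rt. Of 8 in the table, 7 were tested, with 4 above 0 and a median log2 fold change of 0.0069. Rps4l, related to Rps4x and listed as a transcribed pseudogene, was the highest, with 371, 309 and 475 in knockout and 268, 291 and 241 in control libraries. Its groups do not overlap, at 0.50 ± 0.20 (SE, limma adjusted p = 0.197). Rpl22l1, the paralogue of Rpl22, had 198, 272 and 215 in knockout and 253, 173 and 260 in control libraries. Rps27l, a p53 target in human cells, had 142, 183 and 213 in knockout and 286, 199 and 148 in control libraries, at -0.19. Rpl39l had 186, 168 and 193 in knockout and 247, 261 and 120 in control libraries, at -0.12, beside 0.01 for its parent Rpl39. Rpl36al, Rpl7l1 and Rps27rt had 0.08, -0.02 and 0.35, beside 0.66, 0.19 and 0.29 for Rpl36a, Rpl7 and Rps27. Rpl3 had 2244, 2686 and 3018 in knockout and 2130, 1895 and 1882 in control libraries, without overlap, at 0.42.

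Rpl3l, the striated muscle form of Rpl3, did not pass the filter, at 9.81, 2.73 and 4.77 in knockout S5, S6 and S7, against 2.54, 18.7 and 38.7 in control S2, S3 and S4. Its 2 highest values are in the libraries where the 7 other muscle genes sum highest, at 4870 in control S3 and 7497 in control S4, against 718 to 1520 in the knockout libraries. That relation was not tested. Rpl23a, Rpl36a-ps1 and Rps23rg1 also failed the filter, with no value above 24.6.

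Members linked to disease or to mutant mice mostly had positive fold changes as well. All 19 human Diamond-Blackfan anaemia genes had a log2 fold change above 0, with a median of 0.30, and 0 passed the test. Of all 87 tested members, 90.8% were above 0, and of all tested genes 51.2%. Of 7 genes known from skin, coat or skeletal mutants of mice, 6 were above 0, with a median of 0.22. Of 9 Mdm2 binders, 8 were above 0, with a median of 0.37. The 4 X-linked members had a median of 0.08.

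Values of single rows depend on where reads of near-identical copies were placed. A family here is a member with the pseudogene or retrogene rows that bear its name. Of 84 families, 32 had a single row, and in 26 the member's own row held under 50% of the family's mean value. Rows with a changed name were not joined, such as Rps12l1, Rps3a2 and Rpl6l, with means of 604, 2450 and 797. Rps3a1 and Rpl6 thus count among the single rows. In 25 families another row exceeded the member's own, and its transcript was 98.9% to 100% identical to the member's coding sequence. Rpl23a averaged 14.4 over the 6 libraries while Rpl23a-ps3, which is 1 edit away from its coding sequence, averaged 1623. Rps6 averaged 247 and Rps6-ps4 6161, with 0 differences over 747 coding bases. Rpl10 averaged 433 and Rpl10-ps3 8168, with 0 differences over 642 bases. Rpl10-ps3, named as a pseudogene but listed as protein-coding, is a member by the rule and had a log2 fold change of 0.0056.

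Rps27 and its retrogene Rps27rt show the same at their starts. RefSeq on GRCm38.p6 places Rps27rt at chr9:114982711-114982739 and the matching stretch of Rps27, from its second annotated base, at chr3:90213619-90213647, both on the minus strand. The capitals are the 29 of 29 identical bases.
Rps27: CTTTCCGGCGGTGACGACCTCCCTACGAG
Rps27rt: CTTTCCGGCGGTGACGACCTCCCTACGAG
Rps27 had 59.3, 79.6 and 37.7 in knockout and 43.0, 43.9 and 46.7 in control libraries, while Rps27rt had 1713, 2318 and 2685 in knockout and 1980, 1710 and 1521 in control libraries. Reads from these stretches cannot be told apart, so the values of the 2 rows are uncertain singly.

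Summing each family before the fit, an alternative chosen after the data were seen, gave similar counts. Of 83 families tested, 0 were called, 78 were above 0 and the median log2 fold change was 0.35. At an unadjusted p under 0.05, 14 were higher and 0 lower. The Rps19 family had 2182, 3214 and 3676 in knockout and 2150, 1627 and 1748 in control libraries, at 0.69 ± 0.23 (SE, limma adjusted p = 0.123). Of 79 tested pseudogene rows with a ribosomal protein name, 71 were above 0, with a median of 0.36. Among the 79, 1 row was called higher, against 4.12% of all tested genes. It was Rps2-ps6, at 1045, 823 and 1143 in knockout and 643, 579 and 447 in control libraries (0.84 ± 0.20 SE, limma adjusted p = 0.0496).

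**Figure D5:**
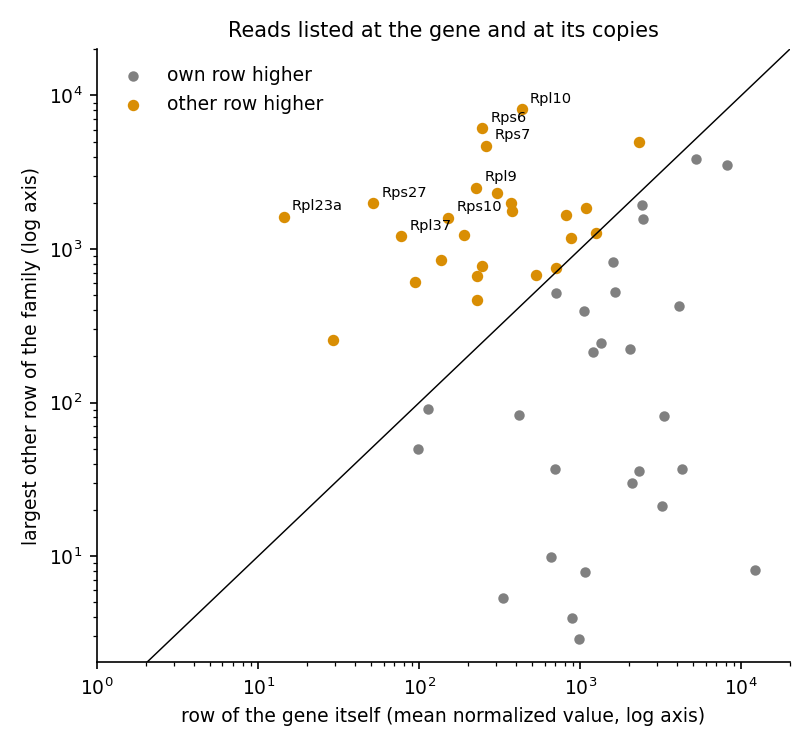
Mean normalized value over 6 libraries of the member's own row (horizontal, log axis) against the highest other row of its family (vertical, log axis), with a line of equality. The 25 orange families above the line have another row higher than the member's own, as Rpl23a does at 14.4 against 1623.

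Per kilobase of coding sequence, levels of the 77 core members differed widely. The ratio of the 90th to the 10th percentile was 21.3 in knockout and 22.0 in control libraries for own rows, and 11.3 in knockout and 9.36 in control libraries for family sums. Rpl41, the smallest ribosomal protein, had the highest level per kilobase, at 36351 in knockout and 30521 in control libraries. Its coding sequence is 75 bases long, and its row averaged 2508 over the 6 libraries, against 12116 for Rplp0. Whole-row values were divided by a length without the untranslated parts, so this measure can overstate members with short coding sequences. Rpl24 had the lowest family sum per kilobase, at 129 in knockout and 106 in control libraries. Its family is 1 row with a mean of 55.4, and any copies under other names were not joined. Whether its reads were placed at such copies was not tested.

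The other genes of protein synthesis gave few calls. Of 36 translation initiation factors, 2 rose and 0 fell, a share near the 4.12% of all tested genes called higher, and their median log2 fold change was 0.15. Eif2b2, part of the exchange factor that reloads eIF2 with GTP, had 283, 267 and 404 in knockout and 132, 135 and 157 in control libraries (1.10 ± 0.22 SE, limma adjusted p = 0.0278). Eif6, which keeps free large subunits apart from small ones, had 777, 773 and 1082 in knockout and 474, 526 and 489 in control libraries (0.79 ± 0.18 SE, limma adjusted p = 0.0427). None of 13 elongation and termination factors was called, and Eef1a1, which brings aminoacyl-tRNA to the ribosome, had 51459, 58276 and 70332 in knockout and 54971, 49322 and 45721 in control libraries. Of 22 further TOP genes 19 (86.4%) were above 0, against 51.2% of all tested genes, with a median of 0.25 and 0 called. These include Rack1 and Fau, ribosomal proteins that the symbol rule misses, at 0.64 and 0.67.

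Regulators and makers of ribosomes gave 0 calls, against 6.71% of all tested genes, a share that leaves few calls to be had in short lists. Of 61 assembly factors, 0 were called and 46 (75.4%) were above 0, against 51.2% of all tested genes. Their median was 0.15, with the abundant nucleolar protein gene Ncl at -0.31. None of 19 tested RNA polymerase I genes was called (median 0.08, the rDNA activator Ubtf at -0.18). None of 26 mTORC1 and S6 kinase genes was called (median 0.02, the mTOR inhibitor Deptor at -0.14). None of 11 Myc family genes was called, with a median of 0.05 and Mxd4, the most abundant, at -0.33. Myc, a known activator of ribosomal protein genes named here after its values were seen, had 3024, 4776 and 3236 in knockout and 2508, 2025 and 1374 in control libraries (0.91 ± 0.27 SE, limma adjusted p = 0.0956).

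Stress gene lists gave 1 call each, both lower, a share near the 2.59% of all tested genes called lower. Among 25 p53 pathway genes, Eda2r, a receptor of the tumour necrosis factor family, fell to 137, 113 and 117 in knockout, against 283, 224 and 267 in control libraries (log2 fold change -1.02 ± 0.19 SE, limma adjusted p = 0.0246). The median of that list was -0.03. Among 23 integrated stress response genes, whose median was -0.37, Nupr1, a stress-induced chromatin protein, fell to 973, 1018 and 667 in knockout, against 2707, 2674 and 1616 in control libraries (-1.37 ± 0.26 SE, limma adjusted p = 0.0246).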

How the data were processed

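Sorted skin cells of 3 knockout and 3 control samples were sequenced as RNA. Per the labels' protocols, RNA was extracted with a PureLink kit and libraries made with NEBNext Ultra II. Partek 9.0.20.0202 and TopHat2 2.1.0 appear in the submitters' processing notes, with no role given. The build, the annotation and any use of strand were not given in the sources used here. The authors deposited normalized counts, per the file headers, used here as a signal. From the values, it is reads divided by a size factor of 0.787 to 1.26 per library, with 78.7% to 81.2% of values up to 1000 reads whole within 0.05. Since the rest are not whole, count models were not run. A floor of 3 reads equals 2.39 to 3.81 units and covers counting error only.

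The 15935 genes with 1 or more units per 1000000 of a library's total, in 3 or more libraries, were fitted with limma 3.58.1 in R 4.3.3, with an intensity trend, on log2(value + 9.15), which understates changes of low genes. Adjustment was by Benjamini-Hochberg over all genes, at 0.05. Sums were compared by exact 2-sided permutation. Copies were aligned with edlib 1.3.9.post1 in Python 3.11.15, and figures drawn with matplotlib 3.10.9. All 91 member identifiers occur in GENCODE on GRCm38, but 610 of 23221 matched genes share its start, so the table's coordinates are not printed. The script was tested on simulated data.

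The members and lists were chosen with earlier results of these data known. Named members are the 8 highest and 8 lowest log2 fold changes, the 6 highest means, paralogues with parents, those failing the filter, a fixed set of known genes, and in each list up to 3 called genes or the 1 most abundant. Alternatives were other scalings, pseudocounts, filters, weights, denominators and member sets, and leaving out each library.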

Additional observations from a re-analysis of the deposited data

How the results depend on the processing

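No ribosomal protein gene was called under any alternative tried except limma array weights, which called 1. Their median log2 fold change moved to 0.65 when libraries were scaled to a common total, where the median of all genes was 0.31 against 0.01 as deposited, and to 0.17 with array weights. It was 0.23 to 0.45 when each library was left out in turn, lowest without knockout S7 and highest without knockout S5. Genes called over the whole table numbered 1070 as deposited, 1997 with array weights, and 270 to 1237 with a library left out, of which 270 without knockout S6, 307 without control S2, 435 without knockout S7 and 545 without control S3. Calls higher in knockout were 61.4% as deposited, 78.9% with a common total and 51.3% with a common upper quartile. The share of members in the library total was 0.334 percentage points higher in knockout libraries, 0.506 with pseudogene rows counted and 0.241 to 0.440 with a library left out. The ratio to mitochondrial members differed by 1.97, or 1.38 to 2.89 with a library left out. Of single members, none of them called, a common total gave Rpl10 0.29, Rpl22 0.0082, Rpl39l 0.19, Rpl7l1 0.30, Rps12 0.27 and Rps27l 0.12. A common upper quartile gave Rpl10-ps3 -0.063, Rpl22l1 -0.059 and Rpl39 -0.057, and array weights gave Rpl10-ps3 -0.15, Rpl22l1 -0.084, Rpl36al -0.15 and Rpl39 -0.12. With a library left out, values changing sign ranged from -0.22 to 0.14 for Rpl10, -0.16 to 0.12 for Rpl10-ps3, -0.18 to 0.11 for Rpl22l1, -0.13 to 0.21 for Rpl36al, -0.076 to 0.15 for Rpl39, -0.46 to 0.071 for Rpl39l, -0.013 to 0.25 for Rpl4, -0.081 to 0.028 for Rpl7l1, -0.17 to 0.075 for Rps12, -0.017 to 0.44 for Rps2 and -0.41 to 0.045 for Rps27l. Family sums turned Rpl10 to 0.0088, Rpl9 to 0.15 and Rps12 to 0.052. The causes were not tested. Numbers 2 and 3 of the column names occur in both groups, but with only these 2 pairs and correlations of deviations across genes of 0.25 and -0.22 they are not taken to pair libraries. A replicate block on them, chosen after the data were seen, rests on these 2 pairs and called 0 members and 1527 genes, with a median member of 0.44, a share difference of 0.478 points, a ratio difference of 2.71, Rpl10 at 0.013 and Rpl10-ps3 at -0.13. With 3 libraries a group, no permutation p can be under 0.1.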
